A study of Mus musculus with 6 samples.

Results

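The subject here is the set of nuclear genes for the mitochondrial respiratory chain and ATP synthase in mouse bone marrow. Members are the genes whose symbol in the array's annotation starts with Nduf, Uqcr or Atp5, or with Cox and a digit from 4 to 8, together with Sdha, Sdhb, Sdhc, Sdhd and Cyc1. Only probe sets that carry a single symbol were taken. This gave 91 of the 18193 genes measured and 180 of the 45037 probe sets: 34 genes of complex I, 4 of complex II, 9 of complex III, 18 of complex IV, 17 of complex V and 9 assembly factors. Ndufa4 and its relative Ndufa4l2 were placed with complex IV, where the Ndufa4 protein resides, and the Ndufaf genes and Cox7a2l with the assembly factors.

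Marrow came from adult female F1 mice of crosses of AKR/J or of DBA/2J with FVB/NJ. The group called AKR F1 is (AKR/J x FVB/NJ)F1 and the group called DBA F1 is (DBA/2J x FVB/NJ)F1, with 3 Affymetrix arrays each and no treatment that differs between them. In every animal 1 parental genome is FVB/NJ. The labels do not say which strain was the dam, so the mitochondrial genome of each group is not stated. All values are log2 expression as deposited, differences are AKR F1 minus DBA F1, and each gene is represented by the probe set of highest mean level. The labels do not say whether arrays came from separate animals, so the p-values reflect only how far these samples spread, which may be technical. Whole marrow is a mixture of cell types, and fewer cells of a type cannot be told apart from less RNA per cell.

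The respiratory chain passes electrons from NADH (complex I) and succinate (complex II) through coenzyme Q to complex III, from there by cytochrome c to complex IV and oxygen, and the proton gradient built on the way drives ATP synthase, complex V. A few core subunits are made inside the mitochondrion and the rest, those described here, come from the nucleus. In marrow the chain serves dividing precursors and, in developing red cells, also the mitochondrial steps of heme synthesis.

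Most of these genes did not pass the test between the crosses. By limma over all genes, with an adjusted p under 0.05, AKR F1 had 12 of the 91 members higher and 3 lower, and 76 did not pass. The 15 that passed are 16.5% of the members, against 15.2% of all genes. Higher members were 13.2% against 9.20% of all genes, and lower members 3.3% against 6.04%. The members are mostly bright: 88 of 91 lay above the median probe set level, and among all genes above that level 13.4% passed as higher and 8.98% as lower. The median difference was 0.07 over the members and 0.06 over all genes. Of the 88 bright members 17.0% passed, against 22.3% of all genes above that level. The higher share among them was 13.6% and the lower share 3.41%, so the higher share lay near that of bright genes and the lower share below it, a difference that was not tested.

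Differences of more than 1.5-fold occurred in 6 of the 91 members and in 1254 of all 18193 genes. Of the 6 members 3 are muscle isoforms of complex IV that did not pass. For 69 of the 76 members that did not pass, the 95% interval of the difference (unadjusted) lay wholly within 1.5-fold in either direction, as it did for 13164 of the 15422 genes that did not pass. Within groups the members were even, with a median SD of 0.07 in AKR F1 and 0.11 in DBA F1, against 0.10 and 0.13 over all genes. All arrays of one group lay above all of the other in 39 of the 91 members. This was so in 36.7% of all genes and in 5465 of the 11542 bright genes. AKR F1 was above in 30 members (23.0% of all genes, 3242 of the bright genes). DBA F1 was above in 9 (13.7% of all genes, 2223 of the bright genes).

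**Figure D1:**
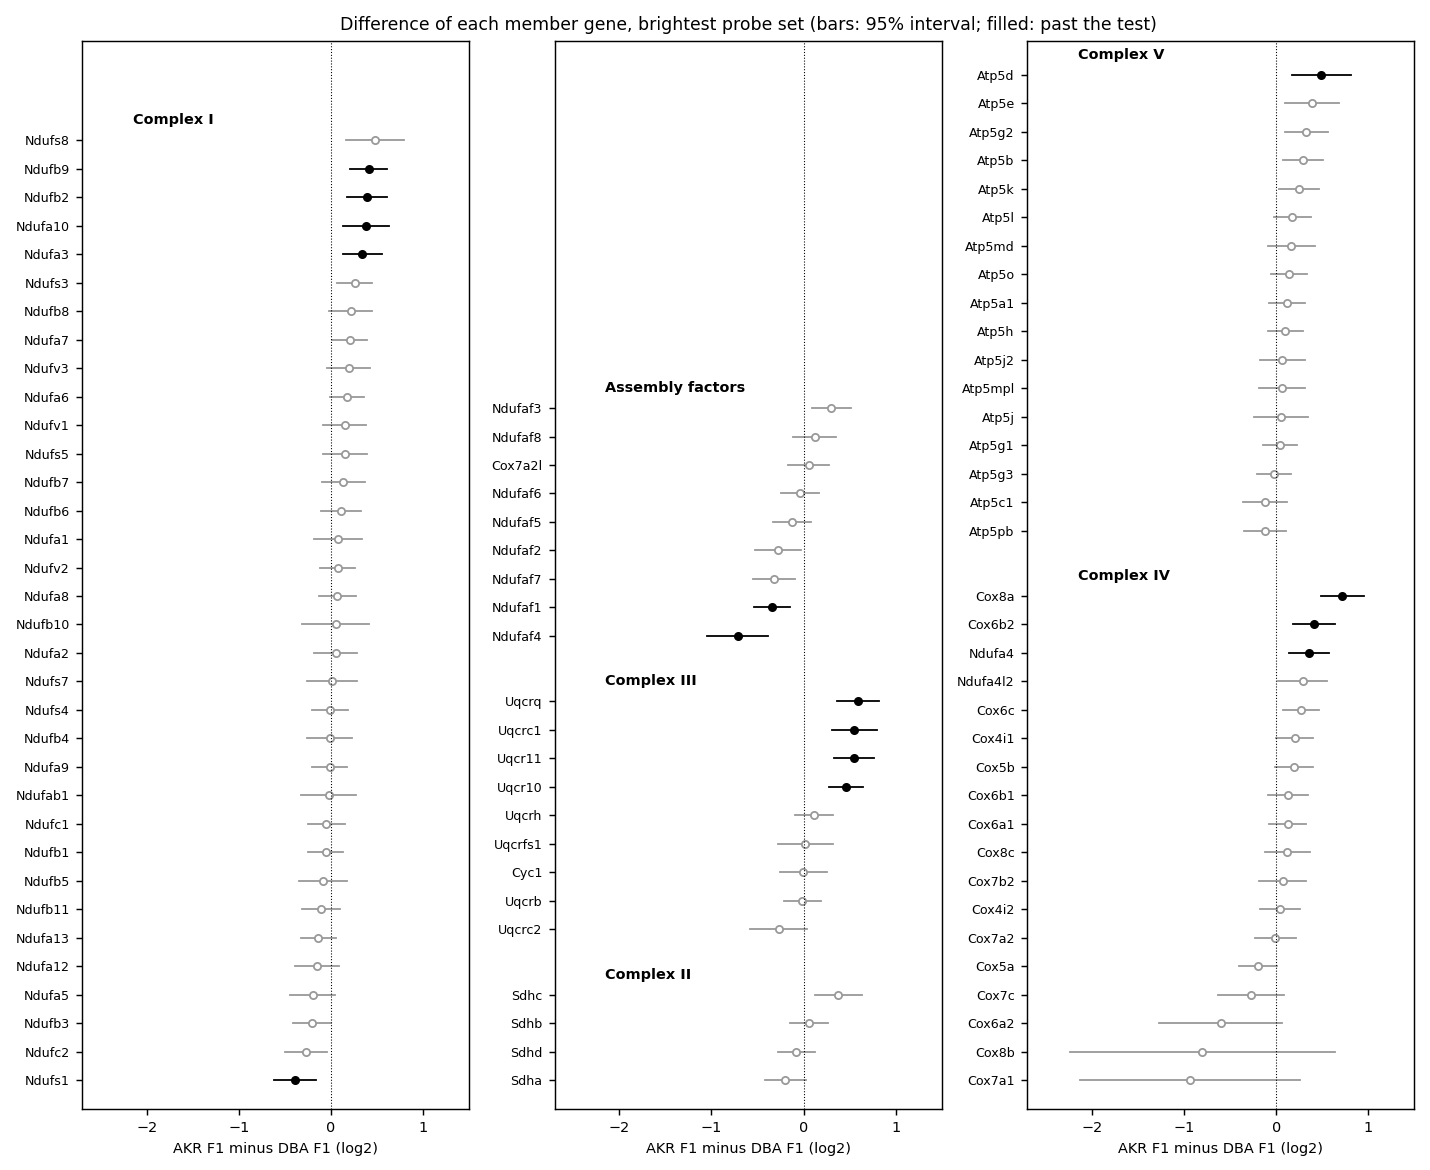
Difference of each of the 91 member genes on the log2 scale (x axis, AKR F1 minus DBA F1) with its 95% interval, sorted within each complex. Filled points passed the test: 12 lie to the right of 0 and 3 to the left, 4 of the 12 in complex III, and the widest intervals belong to Cox8b, Cox7a1 and Cox6a2.

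The count depended on which array was left out. Dropping AKR F1 replicate 1, 2 or 3 left 7, 2 or 4 members, and dropping DBA F1 replicate 2 or 3 left 8 or 10. Without DBA F1 replicate 1 it was 17. The count over all genes fell from 2771 to between 685 and 2147 in the fits with fewer members, and was 3248 without DBA F1 replicate 1. With the replicate number as a block 10 members passed, against 13.0% of all genes. Some array-wide measures also separated the groups: the 3' to 5' index of the control transcripts, a measure of RNA integrity and labelling, was 1.25 to 2.03 in AKR F1 and 1.03 to 1.23 in DBA F1, the hybridization controls 10.41 to 10.61 and 10.96 to 11.33, and the mean of 20 skeletal muscle markers 6.65 to 8.09 and 8.33 to 10.68. With each of these in turn as a covariate 0 of the 91 members passed in limma, and 18, 3 and 22 had an unadjusted p under 0.05. All 15 called members kept their sign in each fit, and the median standard error grew 1.65, 2.62 and 1.65 times. The shares of all genes that passed in these fits were 0.115%, 0.00550% and 2.37%.

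Sequence features that the selection did not use set a background for the values that follow. Promoters of respiratory genes are known for sites of NRF1, of ETS factors such as GABP, and of YY1. The RefSeq table (GRCm38.p6, 250 bases before to 50 after each start) holds a promoter for 74 of the 91 members. The NRF1 letters GCGCATGCG, searched on both strands, occurred in 9 of them (12.2%), against 1.95% of all 27025 genes in the table and 3.05% of the 14294 measured genes that are no members. The ETS letters CCGGAAG occurred in 19 (25.7%), against 9.93% of the table and 2140 of the 14294 measured others. The YY1 letters AAGATGGC occurred in 10 (13.5%), against 3.19% and 4.04%. At least 1 of these motifs was present in 32 members (43.2%), against 14.1% of all genes in the table and 20.4% of the measured others. A motif was held by 4 of 10 higher members (40.0%), both lower members with a promoter and 26 of 62 members that did not pass (41.9%). These are matches of letters, not sites shown to be bound.

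The windows around the matches in members that passed are given first, so that those described below can be looked up. Each is 30 bases, 5' to 3' on the strand of the gene, with the motif in capitals, which reads as its complement where it lies on the other strand. GCGCATGCG and its complement on the other strand overlap by all but their end bases in Uqcrc1 and Ndufaf4, where the capitals cover both.
Uqcrc1, NRF1, chr9:108936668-108936697, plus strand: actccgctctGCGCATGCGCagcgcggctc
Uqcr11, NRF1, chr10:80406808-80406837, minus strand: gatcgccttcaCGCATGCGCtatacgtctg
Uqcr11, ETS, chr10:80406870-80406899, minus strand: tttctctcctccCCGGAAGtagatgtcaat
Cox8a, ETS, chr19:7217604-7217633, minus strand: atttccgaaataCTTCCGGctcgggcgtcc
Cox8a, ETS, chr19:7217567-7217596, minus strand: tcagcgccggaaCTTCCGGctggttcggcc
Ndufa3, YY1, chr7:3617384-3617413, plus strand: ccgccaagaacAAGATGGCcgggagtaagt
Ndufaf4, NRF1, chr4:24897960-24897989, plus strand: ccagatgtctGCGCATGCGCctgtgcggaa
Ndufaf1, ETS, chr2:119662835-119662864, minus strand: gcgggaccacaaCCGGAAGcgtggcgaacc

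A longer stretch, from 250 to 11 bases before the start, is shown for a member that rose and for the member with the largest fall among those past the test, each with a motif in capitals. The Uqcr11 stretch also shows how far the ETS match lies from the start, its first base being 66 bases upstream, while the NRF1 match of Ndufaf4 begins 113 bases upstream.
Uqcr11, chr10:80406832-80407071, minus strand: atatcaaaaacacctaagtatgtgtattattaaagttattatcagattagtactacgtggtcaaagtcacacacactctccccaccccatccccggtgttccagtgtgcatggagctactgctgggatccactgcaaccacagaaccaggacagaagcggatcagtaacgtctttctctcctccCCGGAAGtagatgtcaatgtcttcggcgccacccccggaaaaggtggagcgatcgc
Ndufaf4, chr4:24897833-24898072, plus strand: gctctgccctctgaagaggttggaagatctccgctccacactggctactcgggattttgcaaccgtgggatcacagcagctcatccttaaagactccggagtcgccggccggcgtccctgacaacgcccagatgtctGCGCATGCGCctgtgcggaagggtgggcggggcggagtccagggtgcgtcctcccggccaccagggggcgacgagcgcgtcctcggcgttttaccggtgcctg

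Complex I, the NADH dehydrogenase, had 4 members higher, 1 lower and 29 that did not pass, with a median difference of 0.06. This is 14.7% of its members, against 15.2% of all genes. Its peripheral arm binds NADH in the N module and hands electrons to coenzyme Q in the Q module, and the membrane arm pumps protons. All 4 higher members belong to the membrane arm, which has 20 members here, and the lower one to the N module. With 13.4% of all bright genes higher, these counts by module are a description. In the Q module 0 of 5 passed.

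Ndufs1 encodes the largest iron-sulfur protein of the N module. It was at 9.63, 9.45 and 9.64 on AKR F1 arrays and 10.10, 9.89 and 9.89 on DBA F1 arrays, so that every DBA F1 array lay above every AKR F1 array. The difference was -0.39 (SE 0.10, adjusted p = 0.036), and it held in 1 of the 6 fits with an array removed. The flavoprotein genes beside it in the module, Ndufv1 and Ndufv2, differed by 0.15 (95% interval -0.08 to 0.38) and 0.07 (-0.12 to 0.26).

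Among the Q module genes, Ndufs8, which encodes an iron-sulfur protein, came closest by the brightest probe set. Its AKR F1 arrays were at 11.75, 11.85 and 11.86 and its DBA F1 arrays at 11.59, 11.40 and 11.04, without overlap, and its difference of 0.47 had an adjusted p of 0.051. The differences of all 6 of its probe sets were above 0, but none passed in the fit over probe sets (adjusted p 0.062 to 0.42). Ndufs8 passed in 1 of the 6 fits without 1 array. Ndufs3 differed by 0.26 (adjusted p = 0.071). A second Ndufs7 probe set, described below, was higher by 0.61 (adjusted p = 0.012 over probe sets).

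In the membrane arm Ndufb9 was at 11.63, 11.66 and 11.66 for AKR F1, with DBA F1 at 11.31, 11.29 and 11.13. These groups did not overlap, and the difference was 1.33-fold (0.41, SE 0.09, adjusted p = 0.020). A second Ndufb9 probe set of nearly equal brightness overlapped between the groups and differed by 0.17 (adjusted p = 0.35 over probe sets). Ndufb2 was at 9.69, 9.87 and 9.91 against 9.44, 9.36 and 9.49, a difference of 0.39 (adjusted p = 0.030). A second Ndufb2 probe set, nearly as bright, differed by 0.235 (adjusted p = 0.18 over probe sets). Ndufb9 and Ndufb2 both encode accessory subunits at the distal end of the arm, and each gene passed in 3 of the 6 fits without 1 array.

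Ndufa10, a kinase-like accessory subunit, was at 10.97, 10.69 and 10.88 in the AKR F1 arrays against 10.60, 10.40 and 10.40 in the DBA F1 arrays (difference 0.38, adjusted p = 0.049). Ndufa3, a small membrane subunit, was at 12.03, 12.11 and 12.01 against 11.81, 11.74 and 11.58 (difference 0.34, adjusted p = 0.044). In the fit over probe sets the same probe sets of Ndufa10 and Ndufa3 had adjusted p of 0.059 and 0.053 and did not pass. A second Ndufa3 probe set differed by 0.30 (adjusted p = 0.0845 over probe sets). By the brightest probe set the groups did not overlap in either gene, but each gene passed in only 1 of the 6 fits without 1 array. Over those 6 fits the complex I count ran between 0 and 5: it was 1, 0 and 0 without AKR F1 replicates 1, 2 and 3 and 1 and 3 without DBA F1 replicates 2 and 3, against 5 in the full fit. With each array centred on its median it was 3. The single-symbol probe set of Ndufb4 lay at 3.37 and 3.38, below the lower quartile of every array (3.68 to 3.75), and says nothing of that gene.

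Complex II, succinate dehydrogenase, belongs to the tricarboxylic acid cycle as well as to the chain, and none of its 4 subunits passed. Sdha, the flavoprotein, differed by -0.20 (95% interval -0.42 to 0.02), Sdhb, the iron-sulfur protein, by 0.06 (-0.15 to 0.26), and Sdhd, a membrane anchor, by -0.08 (-0.28 to 0.12). The other anchor, Sdhc, was at 9.81, 9.76 and 9.85 on AKR F1 arrays and 9.62, 9.42 and 9.24 on DBA F1 arrays. These groups do not overlap, and the difference of 0.38 had an adjusted p of 0.052. Sdhc passed, among other settings, with quantile normalization or with dim probe sets left out, and in 1 of the 6 fits without 1 array. It did not pass with median centring, a replicate block or the mean of probe sets. A second Sdhc probe set, at a mean level of 8.81, overlapped between the groups and differed by 0.16 (adjusted p = 0.43 over probe sets).

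Complex III, the cytochrome bc1 complex, had 4 of 9 members higher in AKR F1 and none lower. Among all genes 9.20% were higher, and among bright genes 13.4%. One of the 4 is Uqcr10, whose probe sets disagree in direction, and with the mean of each gene's probe sets the complex had 2 higher and 2 lower. The complex takes electrons from coenzyme Q and gives them to cytochrome c. Its catalytic iron-sulfur protein and cytochrome c1 are encoded by Uqcrfs1 and Cyc1, its core proteins by Uqcrc1 and Uqcrc2, and its small subunits by the other 5 genes.

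Uqcrc1 was almost constant in AKR F1, at 11.34, 11.33 and 11.32, and lower in DBA F1, at 10.95, 10.79 and 10.60. It was 1.47-fold higher in AKR F1 (difference 0.55, SE 0.11, adjusted p = 0.014). The partner core protein gene Uqcrc2 did not follow it: its arrays overlapped, at 10.55, 10.44 and 10.59 against 10.56, 10.74 and 11.08, with a difference of -0.27 (95% interval -0.58 to 0.04). A second probe set of Uqcrc2 was lower in AKR F1 (-0.44, adjusted p = 0.032 over probe sets).

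The small subunit gene Uqcrq was at 10.84, 10.67 and 10.72 for AKR F1, with DBA F1 at 10.28, 10.14 and 10.02. This is 1.51-fold (difference 0.59, SE 0.10, adjusted p = 0.0098), and the call held whichever array was removed. Its other 3 probe sets lay at mean levels of 4.57 to 4.98, below the array medians, and differed by 0.02 to 0.11.

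Uqcr11 was at 10.37, 10.41 and 10.39 against 9.98, 9.85 and 9.71, a difference of 0.55 (SE 0.10, adjusted p = 0.011). It passed in 5 of the 6 fits. Uqcr11 and Uqcrc1 each have 1 probe set with a single symbol, so no other probe set can check them.

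Uqcr10 is the member whose probe sets disagreed most. The brightest was at 10.77, 10.74 and 10.73 in the AKR F1 arrays against 10.30, 10.25 and 10.30 in the DBA F1 arrays, a difference of 0.46 (SE 0.08, adjusted p = 0.011). The second was at 6.74, 6.56 and 6.44 against 7.06, 7.09 and 6.91, and the third at 4.35, 4.45 and 4.38 against 6.42, 6.15 and 6.33. In both of these all DBA F1 arrays lay above all AKR F1 arrays, with differences of -0.44 (adjusted p = 0.036 over probe sets) and -1.91 (adjusted p = 0.00013). Uqcr10 is the only member with probe sets past the test in opposite directions, and the direction of its transcript level is therefore uncertain.

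Of the catalytic genes of complex III neither passed. Cyc1 differed by less than 0.01 (95% interval -0.26 to 0.25) and Uqcrfs1 by 0.02 (-0.28 to 0.31). Uqcrb and Uqcrh differed by -0.01 and 0.11 and did not pass. Without AKR F1 replicate 2 the count of 4 became 1, Uqcrq. With all probe sets of a gene averaged, or with the second brightest, 2 members were higher and 2 lower. Uqcrq and Uqcr10 both lie on chromosome 11, Uqcr11 on chromosome 10 and Uqcrc1 on chromosome 9.

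**Figure D2:**
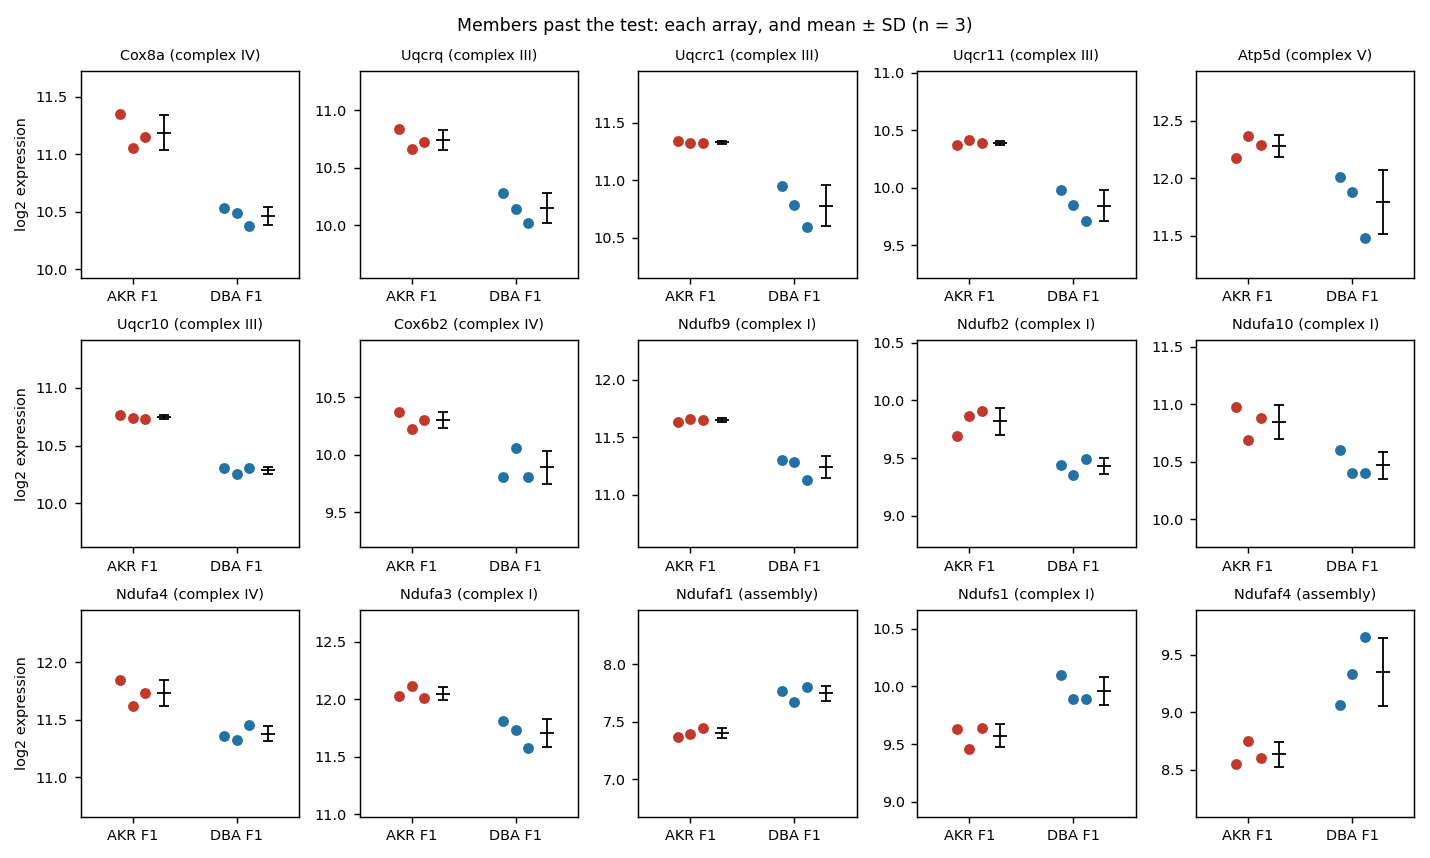
Log2 expression (y axis) of the 15 members past the test in each array, AKR F1 on the left and DBA F1 on the right of each panel, with the mean and SD of the 3 arrays beside the points. Every y axis covers a span of equal length, and in each panel the groups do not overlap: Cox8a differs most upward (0.72) and Ndufaf4 most downward (-0.72).

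Of the 18 members of complex IV, cytochrome c oxidase, 15 did not pass and none were lower. The complex had 3 members higher (16.7%, against 9.20% of all genes and 13.4% of bright genes). Several of its nuclear subunits exist as a widely expressed form and as a form of heart and skeletal muscle, lung or testis, and the members were read in those groups: 10 widely expressed and 8 tissue isoforms.

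Cox8a, the widely expressed form of the smallest subunits, had the largest rise of all members. It was at 11.35, 11.05 and 11.15 on AKR F1 arrays and 10.53, 10.49 and 10.38 on DBA F1 arrays, 1.65-fold (difference 0.72, SE 0.10, adjusted p = 0.0063). Its second probe set was higher too (0.56, adjusted p = 0.013 over probe sets), and the third, below the array medians, differed by 0.17 and did not pass. The call held whichever of the 6 arrays was removed.

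Ndufa4 was at 11.85, 11.62 and 11.73 against 11.36, 11.32 and 11.46 (difference 0.35, adjusted p = 0.039). Cox6b2, known as a testis form, was at 10.37, 10.23 and 10.30 against 9.81, 10.06 and 9.81 (difference 0.41, adjusted p = 0.031). The groups did not overlap in either, and in these marrow samples the Cox6b2 probe set lay well above the upper quartile of every array (7.34 to 7.43). Each of them has a single probe set and passed in 1 of the 6 fits without 1 array. The complex IV count was 1 without any of the AKR F1 arrays or DBA F1 replicate 1, and 1 with the replicate number as a block.

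The remaining widely expressed subunits did not pass. Cox4i1 differed by 0.20, Cox5b by 0.19, Cox6a1 by 0.12, Cox6b1 by 0.12, Cox7a2 by -0.01 and Cox5a by -0.20, with 95% intervals that end at -0.40 and 0.40 at the widest. Cox6c came nearest, at 0.27 (adjusted p = 0.071). The Cox7c probe sets with a single symbol lay at mean levels of 6.63 and 4.20, and Cox7b was not analysed here.

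The muscle isoforms Cox6a2, Cox7a1 and Cox8b had the largest differences without passing. Cox7a1 was at 4.47, 6.18 and 4.89 for AKR F1, with DBA F1 at 7.23, 5.53 and 5.60 (difference -0.94, 95% interval -2.13 to 0.26). Cox8b was at 5.55, 7.51 and 5.78 against 8.36, 6.11 and 6.77 (-0.80, -2.23 to 0.63). Cox6a2 was at 7.50, 8.15 and 7.50 against 8.99, 7.82 and 8.16 (-0.60, -1.27 to 0.06). In each the groups overlapped, and in each AKR F1 replicate 2 was the highest of its group and DBA F1 replicate 1 the highest of all 6 arrays.

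The same arrays stood out in the skeletal muscle markers. The mean of the 20 markers was 7.11, 8.09 and 6.65 in AKR F1 and 10.68, 8.33 and 8.85 in DBA F1. Of the 20, 9 were lower in AKR F1 by the test, against 6.04% of all genes, and the median difference was -2.33. The highest array of the marker mean in each group is thus the one in which the 3 isoforms were highest. The widely expressed partners varied less over the 6 arrays, Cox6a1 from 13.32 to 13.58, Cox7a2 from 12.66 to 12.88 and Cox8a from 10.38 to 11.35. AKR F1 replicate 2 was the highest of its group in Cox6a1 and Cox7a2 too, and DBA F1 replicate 1 the highest of its group in Cox8a. The part of muscle RNA in the isoform values was not tested. The covariate fit above is given as counts of members past the test, and these isoforms did not pass without the covariate either.

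**Figure D3:**
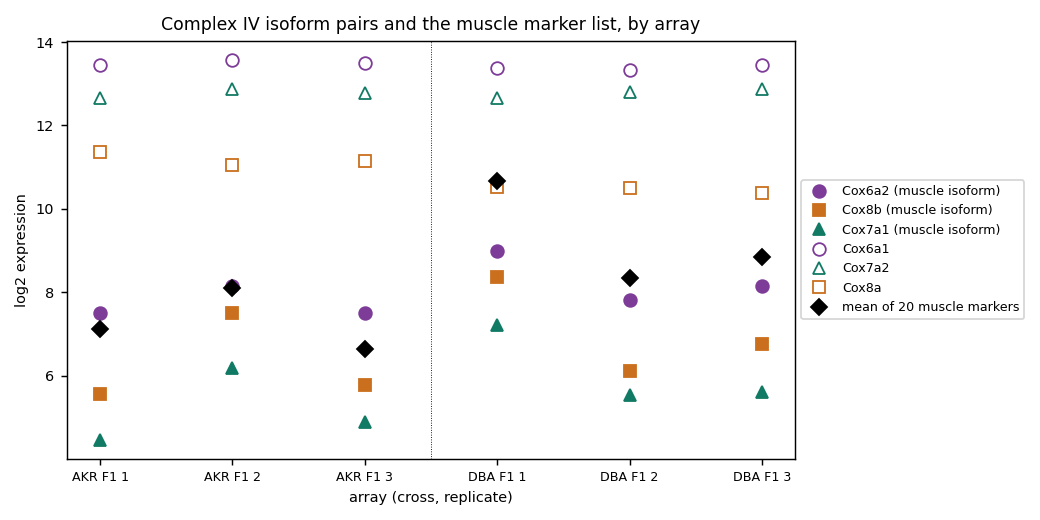
Log2 expression (y axis) of 3 muscle isoforms of complex IV (filled), of their widely expressed partners (open, same colour) and of the mean of 20 muscle markers (diamonds) in each of the 6 arrays. The filled symbols and the diamonds are highest in DBA F1 replicate 1 and, within AKR F1, in replicate 2, while Cox6a1 stays between 13.32 and 13.58; levels of different genes are not comparable on this axis.

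The other tissue isoforms, apart from Cox6b2 above, did not pass. Cox4i2, a form of lung, was at 4.92 ± 0.07 for AKR F1, with DBA F1 at 4.88 ± 0.12 (mean ± SD, n = 3 each), and Cox8c, a testis form, at 7.25 ± 0.15 and 7.13 ± 0.10. Cox7b2, another testis form, lay below the lower quartile of the arrays with a mean level of 3.03. Ndufa4l2, which is induced by low oxygen, differed by 0.29 (95% interval 0.02 to 0.55, adjusted p = 0.14).

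Complex V had 1 of 17 members higher (5.88%, against 9.20% of all genes and 13.4% of bright genes) and none lower. Its F1 head holds the catalytic sites, a ring of c subunits turns in the membrane, and a peripheral stalk holds the head in place. Of the 17 differences 14 were above 0, with a median of 0.11, where 11110 of all 18193 genes were above 0.

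Atp5d, the delta subunit of the F1 central stalk, was at 12.18, 12.36 and 12.29 in the AKR F1 arrays against 12.01, 11.88 and 11.48 in the DBA F1 arrays. The groups did not overlap, but DBA F1 spread widely, and the difference of 0.49 (SE 0.14) stood at the threshold itself (adjusted p = 0.04999). In the fit over probe sets the same probe set had an adjusted p of 0.061 and did not pass. By the gene fit Atp5d passed in 1 of the 6 fits without 1 array, and not with median centring or a replicate block. A second Atp5d probe set, at 11.56, 11.51 and 11.55 against 10.96, 10.55 and 10.25, was higher by 0.95 (adjusted p = 0.011 over probe sets).

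The catalytic subunit genes Atp5b and Atp5a1 differed by 0.29 (95% interval 0.07 to 0.51, adjusted p = 0.077) and 0.11 (-0.08 to 0.31). Atp5e, of the central stalk, differed by 0.39 and Atp5c1, its gamma subunit, by -0.12. Among the 3 genes that encode the same mature c subunit, Atp5g2 differed by 0.33 (adjusted p = 0.063), Atp5g1 by 0.04 and Atp5g3 by -0.03. Atp5o, of the peripheral stalk, differed by 0.14, and 0 of the 4 stalk genes and 0 of the 5 other membrane subunits passed.

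Assembly factors help put complex I together and are not part of the finished enzyme. By the brightest probe set 2 of 9 were lower in AKR F1 (22.2%, against 6.04% of all genes and 8.98% of bright genes) and none higher. With the mean of each gene's probe sets 2 were higher and 2 lower, and with the second brightest 1 and 2. A second Ndufaf8 probe set, at a mean level of 7.29, was higher by 0.60 (adjusted p = 0.017 over probe sets). Ndufaf4 had the largest fall of all members that passed, at 8.55, 8.75 and 8.60 in AKR F1 against 9.06, 9.33 and 9.65 in DBA F1, which is 1.64-fold higher in DBA F1 (difference -0.72, SE 0.15, adjusted p = 0.017). Its other probe set was lower as well (-0.58, adjusted p = 0.017 over probe sets). It passed in 3 of the 6 fits without 1 array.

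Ndufaf1 was at 7.36, 7.40 and 7.44 against 7.77, 7.67 and 7.80 (difference -0.34, adjusted p = 0.030). Its arrays were even within each group and did not overlap between them, but it has a single probe set and passed in 1 of the 6 fits without 1 array. Ndufaf7 and Ndufaf2 had all DBA F1 arrays above (-0.32 and -0.28) and did not pass. Ndufaf3 differed by 0.30 (adjusted p = 0.060) and the supercomplex factor Cox7a2l by 0.05. Without any of the AKR F1 arrays the count of 2 became 0, without DBA F1 replicate 2 or 3 it was 1, and without DBA F1 replicate 1 it was 4, with 1 higher and 3 lower.

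Probe sets of a gene did not always agree. At the level of the 180 member probe sets, 17 were higher (5.57% of all probe sets were) and 7 lower (6.73% of all), 13.3% together against 12.3% of all probe sets. Of the members, 48 have at least 2 probe sets above the median probe set level, which gives 71 comparisons of the brightest with another one. The median gap between their differences was 0.16, it exceeded 0.3 in 17 comparisons, and the sign was opposite in 16. In 7 members that did not pass by the brightest probe set, another one did: Cox5b, Cox6a1, Ndufaf8, Ndufb11, Ndufb7, Ndufs7 and Uqcrc2. Of the 15 members that passed, 3 had another probe set past the test in the same direction, and 6 have a single probe set.

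Ndufs7, an iron-sulfur protein of the Q module, shows the pattern at nearly equal brightness. One probe set was at 10.27, 10.50 and 10.43 against 10.52, 10.48 and 10.17 (difference 0.01), and the other at 10.50, 10.55 and 10.56 against 10.12, 9.88 and 9.77 (difference 0.61, adjusted p = 0.012 over probe sets). The first overlaps between the groups and the second does not. Ndufb7 gave 0.14 and 0.56, Cox6a1 0.12 and 0.53, and Ndufb11 -0.11, -0.21 and 0.38, where the last value of each passed. Strain variants under the probes and the position of each probe set along its transcript were not analysed here.

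**Figure D4:**
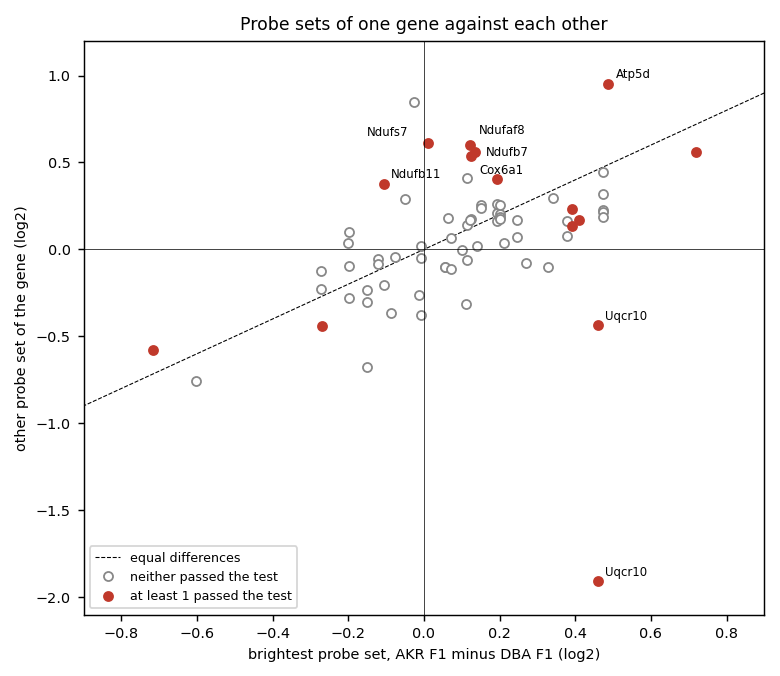
Difference of the brightest probe set of a member (x axis, log2) against that of each other probe set of the same gene above the median level (y axis, log2), 71 pairs from 48 genes, with a dashed line where both are equal. The Uqcr10 pairs lie far below the line, at -0.44 and -1.91 on the y axis, and Ndufs7, Ndufb7, Ndufaf8 and Cox6a1 lie above it.

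Other genes of the pathway were read from lists of known factors, each by its count of members past the test. Of all genes 15.2% passed and of bright genes 22.3%. As higher 9.20% of all genes and 13.4% of bright genes passed, and as lower 6.04% and 8.98%. Whether a list departs from these shares was not tested. Of 34 measured assembly factors of complexes II to V, 4 were higher and 1 lower (median 0.05): Coa3 (0.50), Pet100 (0.52) and Cox16, which act on complex IV, and Uqcc2 (0.39), which acts on complex III, were higher and Tmem70, which acts on complex V, was lower. Of 9 further complex I factors, Timmdc1 (0.89) and Dmac1 (0.47) were higher and Tmem126a (-0.40) was lower. The direction thus varied among factors of a single complex.

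Mobile electron carriers and coenzyme Q genes gave 1 higher and 3 lower of 18 (22.2%, against 22.3% of bright genes, median 0.02). Cycs, which encodes the cytochrome c that links complexes III and IV, was at 11.99 ± 0.03 in the AKR F1 arrays against 12.43 ± 0.17 in the DBA F1 arrays (n = 3 each, adjusted p = 0.025). Gpd2, the mitochondrial glycerol phosphate dehydrogenase, was lower by a difference of -0.39, and Coq8b, a factor of coenzyme Q synthesis, was higher by 0.77. Of 16 tricarboxylic acid cycle and pyruvate dehydrogenase genes 4 were lower and none higher (median -0.15), namely Dld (-0.78), Idh3a, Sucla2 (-0.41) and Pdha1.

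Regulators of mitochondrial gene expression gave 2 higher and 5 lower of 19 (36.8%, against 22.3% of bright genes, median -0.07). Nrf1 and Esrra, activators of respiratory genes, were higher by 0.42 and 0.47. Gabpa, the DNA-binding chain of the ETS factor GABP, was lower by a difference of -0.54 (adjusted p = 0.0068), and Tfb2m (-0.74), Mterf3 (-0.59), Tfb1m and Ssbp1, which act on mitochondrial DNA and its transcripts, were lower. Of 16 carriers and channels 18.8% passed: Slc25a1 (0.68) and Slc25a10 (0.62) were higher and Slc25a13 (-0.49) was lower. Of the genes of the mitochondrial genome only ND5, a membrane subunit of complex I, was read, at 12.23, 11.88 and 12.09 on AKR F1 arrays and 12.77, 12.85 and 12.66 on DBA F1 arrays (difference -0.69, SE 0.11, adjusted p = 0.0087). Its groups did not overlap, and it was 1.62-fold higher in DBA F1. Of the 34 nuclear complex I genes 20 had a difference above 0, as did 11110 of all 18193 genes.

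Marker lists of marrow cells were read beside these values, and the list means of the groups separated for erythroid and macrophage markers and overlapped for the others. Over all genes 9.20% passed as higher and 6.04% as lower, and over bright genes 13.4% and 8.98%. Erythroid markers had 4 of 10 higher and none lower (list mean 10.68 to 10.69 in AKR F1, 10.30 to 10.54 in DBA F1; Hba-a1 by its single-symbol probe set lay below the lower quartile). Macrophage markers had 5 of 10 higher (9.28 to 9.53 against 9.03 to 9.06), B cell markers 1 higher and 2 lower of 9 (9.03 to 9.57 against 9.17 to 9.30), neutrophil markers 1 and 1 of 12 (12.84 to 12.95 against 12.56 to 12.92) and adipocyte markers none of 6 (7.42 to 7.72 against 7.38 to 7.69, with Cidec and Lep below the lower quartile). The part of cell composition in the member differences was not tested.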

How the data were processed

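Trizol RNA of snap-frozen marrow was labelled and hybridised, with a single array per sample, per the labels' protocols. The authors deposited log2 values of 45101 probe sets for 6 arrays, and array upper quartiles lay within 7.34 to 7.43. RMA and MAS5 appear in the submitters' processing notes, with no role stated. Scan dates were not used here. The number of arrays limits the precision.

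Without 64 control probe sets 45037 were tested. The platform annotation names 1 symbol for 34945, several for 932 and none for 9160. All 91 members were matched by gene ID to RefSeq (GRCm38.p6) for their chromosome. A gene is its probe set with the highest mean over all arrays. The test was limma 3.58.1 (R 4.3.3) with empirical Bayes moderation over all genes, or over all probe sets, with 4 residual degrees of freedom, two-sided, and Benjamini-Hochberg adjustment at 0.05. The code was tested on simulated data.

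The members, lists and named genes were chosen with earlier results of these data known. Named were the members past the test, the 3 smallest p in each complex, catalytic subunits, isoform pairs, members with opposed probe sets, and up to 3 called genes of each pathway list, with further genes named after their values were seen. The 3' to 5' index averages, over actin, Gapdh and 4 spiked bacterial transcripts, the 3' probe set minus the 5' one on the log2 scale. Deviations of same-numbered arrays correlated at 0.006, -0.060 and 0.073, so the numbers were not taken as pairs. Alternatives were other scalings, filters, variance models, weights, thresholds, covariates, probe set summaries, a replicate block and leaving out arrays.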

Additional observations from a re-analysis of the deposited data

How the results depend on the processing

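Of the members 15 passed, and 19 did with quantile normalization, 12 with median centring, 19 with a variance trend and 18 with the mean of probe sets. Array weights gave 24 member genes and 41 of the 180 member probe sets, against 24 probe sets otherwise. With the replicate number as a block 10 member genes, 17 member probe sets and 2357 genes of all passed, and arrays of equal number did not deviate together. At a threshold of 0.01 the counts of member genes, member probe sets and all genes were 2, 2 and 526, and at 0.1 they were 25, 45 and 4243. Against a 1.2-fold change they were 0, 1 and 237. With the muscle list mean as a covariate they were 0, 1 and 431, with the 3' to 5' index 0, 1 and 21, and with the hybridization controls 0, 0 and 1. The 1 probe set was lower in AKR F1 in each. Leaving out 1 array gave 2 to 17 member genes, 3 to 27 member probe sets and 685 to 3248 genes of all. The Uqcr10 difference turned to -0.63 with the mean of its probe sets (adjusted p = 0.0039 in limma) and to -0.44 with the second brightest one (adjusted p = 0.035); no other named member past the test in either fit turned its sign. The cause of these shifts was not tested, beyond fewer arrays, other thresholds or other probe sets by construction. Signal limits Ndufb4 and Cox7b2, whose probe sets lay below the lower quartile.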

Other observations

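Probe sets that carry the symbols of several genes were outside the member rule, and 10 of them include a respiratory chain gene. A probe set shared by Ndufa11 and its copy Ndufa11b gave 10.37 ± 0.08 for AKR F1, with DBA F1 at 9.76 ± 0.24 (SD, n = 3 each), a difference of 0.61 (adjusted p = 0.021 over probe sets in limma). The other shared by these genes lay at a mean level of 4.56 and differed by 0.09. A probe set of Ndufs6 and Ndufs6b, of the N module of complex I, was higher by 0.35 (adjusted p = 0.048). The probe sets of Ndufb4 and its copies, at mean levels of 10.03 and 9.96, differed by 0.12 and 0.28 and did not pass. Signals of a gene and its copy cannot be told apart in any of these.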
